A study of Homo sapiens with 15 samples.

Results

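The E proteins and the HES/HEY family of basic helix-loop-helix (bHLH) factors were followed in U87MG cells, an established human glioblastoma line, after delivery of each ID gene by lentivirus. The 10 genes, all found by their symbols among the 25737 entries of the deposited table, were 3 E proteins (TCF3, TCF4, TCF12), 6 HES/HEY factors (HES1, HES4, HES6, HEY1, HEY2, HEYL) and the related repressor BHLHE40. All groups were U87MG cells given lentivirus and collected 24 h later, 3 libraries each. The control virus was labelled GFP, and each of the other 4 carried an overexpression label for 1 ID gene (ID1 to ID4). RNA was read from its 3′ end with the QuantSeq kit, and levels are given in CPM (read counts scaled to library size).

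Proteins of the bHLH class bind DNA as dimers. E proteins are widely expressed and pair with one another or with tissue-restricted bHLH factors on E boxes, and the ID proteins, which have the dimerization domain but no basic domain, bind E proteins and keep them off DNA. The HES and HEY proteins are repressors that recruit Groucho corepressors, and several of them are classical targets of Notch signaling, in which the cleaved receptor joins the DNA-binding factor RBPJ. In glioma, Notch signaling and ID proteins are both known for their link to stem-like cells.

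The question put to the data was whether the partners of ID proteins and the Notch-responsive repressors differ in mRNA level between the control and each ID label. Among the E proteins, TCF12 rose 1.47-fold to 1.60-fold and TCF4 1.13-fold to 1.44-fold with the 4 labels, whereas TCF3 fell with ID1, ID2 and ID3. The TCF4 call with ID1 was lost when any library of the pair was left out. Among the HES/HEY factors, HES1 rose with ID1, ID3 and ID4, and HEY1 rose with ID2. The HES1 calls with ID3 and ID4 depended on single libraries, given with their values below. HES4, HES6 and BHLHE40 did not pass the test with any label, HEY2 was near the limit of detection, and HEYL had 0 counts in all 15 libraries.

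Total counts ranged from 11089044 to 15148979 per library, and 3 counts, taken as the detection floor, corresponded to 0.198 to 0.271 CPM, which covers counting error only. The third ID2 library stood apart from the other two of its group (chi-square per degree of freedom 10.8 and 11.3, against 3.31 between those), so ID2 results are also given without it. The ID4 gene had 0.0787 ± 0.0832 CPM (SD, n = 3) in GFP and 223 ± 12.5 in the libraries labelled ID4, against at most 0.447 ± 0.0881 with the other labels. The ID3 gene had 221 ± 8.33 CPM in GFP and 313 ± 11.4 with its own label, but it was also at 287 ± 27.8 with the ID2 label, where it rose as well (log2 0.40, adjusted p = 7.18e-05, beside 0.49 and 9.91e-06 with its own). In contrast, ID1 had 344 ± 6.96 CPM in GFP and 249.7 ± 3.60 in the libraries labelled ID1, and ID2 had 85.7 ± 2.81 in GFP and 44.9 ± 1.28 in those labelled ID2. The ID2 gene was below GFP with every label, lowest with ID1 (34.3 ± 2.59 CPM). Whether the vectors carry the 3′ ends that these reads count is not given in the sources used here. The ID1, ID2 and ID3 values are therefore no check of those labels. Only the ID4 gene was high with its own label alone, and groups are named as labelled. The labels do not say whether the libraries of a group came from separate cultures or transductions, so the p-values measure only the spread between these libraries. In bulk RNA, fewer expressing cells and less RNA per cell cannot be told apart.

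The glioma line was recognizable in the data. CDKN2A and CDKN2B, which U87MG lacks, had 0 counts in all libraries, and MTAP, deleted with them, had at most 3. Of the astrocytic and glial markers, AQP4 was at 0, GFAP, S100B and SOX2 had at most 4 counts in any library and OLIG2 had 2 to 11. The sum of the 6 genes was 18.2 to 19.5 CPM in GFP and 19.9 to 33.4 CPM with the ID labels, nearly all of it from the glutamate transporter SLC1A3.

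The promoters of members that hold the word GTGGGAA, the core that RBPJ binds, are shown first. Windows of 250 bases before each annotated start (RefSeq, GRCh38.p14) were found for 9 of the 10 genes, all but HEY1. The word occurred on either strand in HES1, HES4, HEY2 and HEYL, and in none of the 10 TCF4 windows, the 5 TCF12 windows or the single windows of TCF3, HES6 and BHLHE40. It was present in 5.46% of the 27305 genes with a window (first window of each), or 5.43% of all 35116 windows. The 4 sequences are written 5′ to 3′ along the gene with the word in capitals, as GTGGGAA or as its complement TTCCCAC.
HES1, chr3:194135898-194136147, plus strand: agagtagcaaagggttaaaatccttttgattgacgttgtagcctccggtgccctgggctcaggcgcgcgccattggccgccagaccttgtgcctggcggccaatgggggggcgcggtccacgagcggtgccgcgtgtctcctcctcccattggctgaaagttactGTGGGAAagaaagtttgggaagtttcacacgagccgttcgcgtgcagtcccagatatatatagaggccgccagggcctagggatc
HES4, chr1:1000098-1000347, minus strand: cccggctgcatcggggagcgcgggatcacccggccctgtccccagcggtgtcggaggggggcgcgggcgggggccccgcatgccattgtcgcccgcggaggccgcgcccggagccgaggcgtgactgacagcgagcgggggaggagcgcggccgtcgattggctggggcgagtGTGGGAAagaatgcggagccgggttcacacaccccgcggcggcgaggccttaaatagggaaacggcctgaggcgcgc
HEY2, chr6:125749382-125749631, plus strand: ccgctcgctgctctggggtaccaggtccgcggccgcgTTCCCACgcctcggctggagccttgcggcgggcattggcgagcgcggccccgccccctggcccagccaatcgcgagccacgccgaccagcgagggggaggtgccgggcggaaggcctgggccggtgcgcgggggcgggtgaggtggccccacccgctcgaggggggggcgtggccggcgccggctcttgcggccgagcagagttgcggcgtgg
HEYL, chr1:39639644-39639893, minus strand: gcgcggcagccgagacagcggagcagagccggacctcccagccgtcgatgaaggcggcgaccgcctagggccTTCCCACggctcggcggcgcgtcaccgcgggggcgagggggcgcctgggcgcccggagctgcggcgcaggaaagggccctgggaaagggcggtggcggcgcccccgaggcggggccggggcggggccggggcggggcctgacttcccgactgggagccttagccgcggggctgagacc
In HES1 the word lay 85 to 79 bases before the start, in HES4 77 to 71, in HEYL 178 to 172 and in HEY2 213 to 207. HES1 also held 3 N boxes (CACNAG on either strand, the word through which HES1 represses its own gene), at 165, 132 and 58 bases before the start, and an N box was also found in the window of TCF3, in 2 of 10 for TCF4 and in 1 of 5 for TCF12, while 31.97% of genes with a window held at least 1. An E box (CANNTG, which reads alike on both strands and includes the words CACGTG and CAGGTG) was found in the windows of HES6 and BHLHE40, in 5 of 10 for TCF4 and in 2 of 5 for TCF12, but not in those of TCF3, HES1, HES4, HEY2 or HEYL, compared with 62.2% of genes with a window. These matches describe letters in 1 window and not binding. Of the 4 genes with the RBPJ word, HES1 passed the test against GFP, HES4 did not, and HEY2 and HEYL had too few counts to enter it.

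Counts were normalized with TMM factors and compared with the quasi-likelihood test of edgeR, and p-values were adjusted by Benjamini-Hochberg over the 12870 entries in the upper 50% of the mean deposited log2 value, and all adjusted p-values of comparisons given below come from this test unless another is named. A gene was called at an adjusted p under 0.05. Of the 10 genes, 8 entered the test. With ID1, 3 were higher and 1 lower, while 12.4% of all tested genes were higher and 9.73% lower (22.1% called). With ID2, 3 were higher and 1 lower, beside 18.5% and 16.7% of all genes (35.1% called). With ID3, again 3 were higher and 1 lower, beside 15.1% and 13.5% (28.6% called). With ID4, 3 were higher and 0 lower, beside 12.1% and 9.51% (21.6% called), and HES4 came nearest to a lower call. Across the 5 groups together, 5 of the 8 differed, where 44.8% of all genes did, so the list as a whole was not far from that share. The 4 comparisons share the GFP libraries, and a GFP library that is high or low moves all of them.

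**Figure D1:**
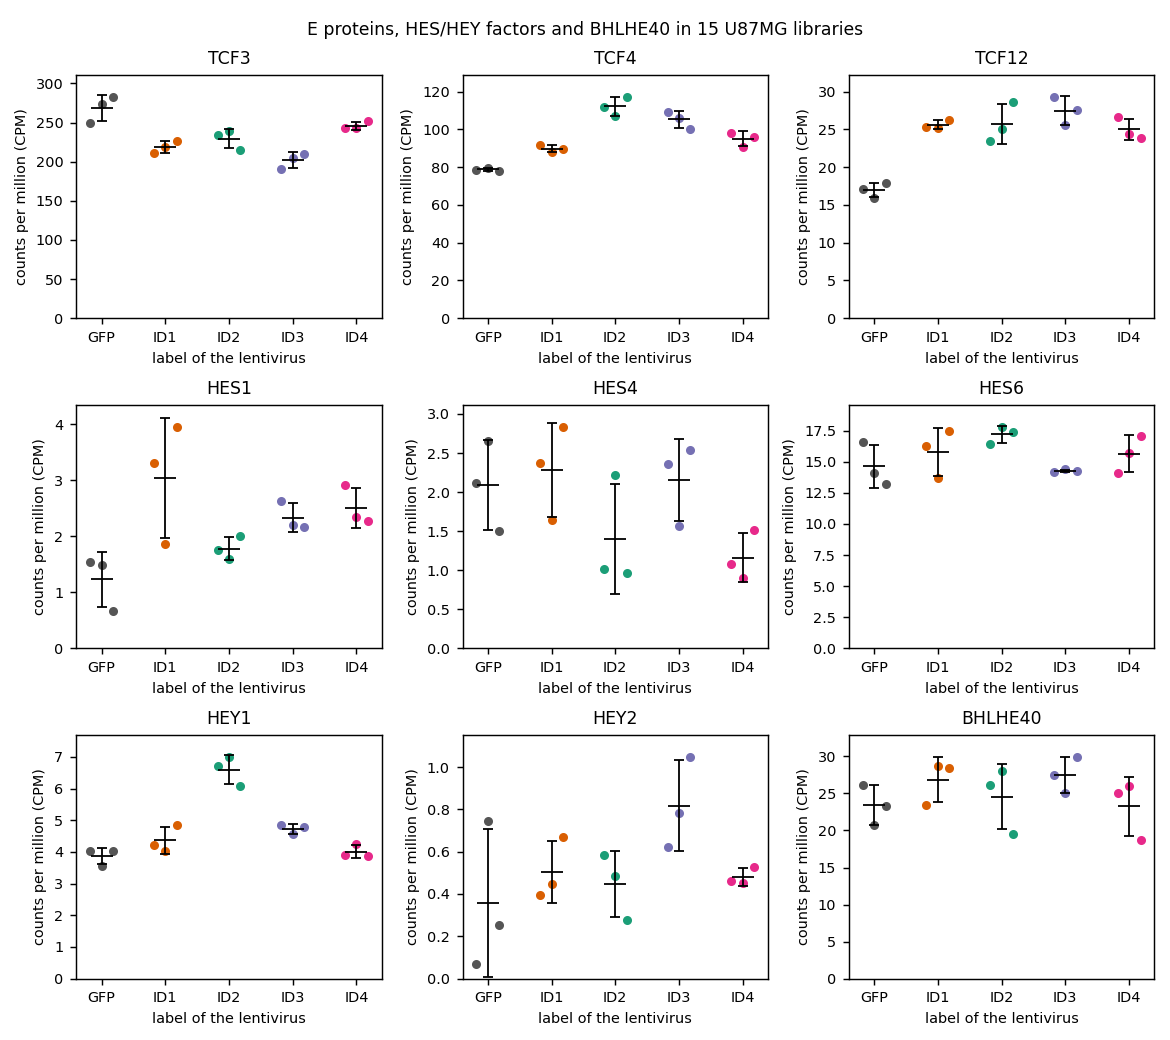
Level of 9 of the genes in each of the 15 libraries, in CPM from 0 on the vertical axis, by label on the horizontal axis. Points are libraries, and bars are the mean and SD of 3. TCF12 lies between 15.9 and 17.8 CPM in GFP and above 23 CPM in all 12 other libraries, and HEY1 is highest in the ID2 libraries (6.09 to 6.99 CPM). HEYL, at 0 in every library, is not drawn.

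TCF12, also called HEB, is an E protein that pairs with myogenic and neurogenic bHLH factors (chr15:57210821-57591479 on GRCh37, plus strand). GFP libraries measured 17.1, 15.9 and 17.8 CPM. The values were 25.3, 25.2 and 26.3 CPM with ID1, 23.5, 25 and 28.6 with ID2, 29.3, 25.5 and 27.6 with ID3, and 26.6, 24.4 and 23.9 with ID4. Every library with an ID label was therefore above every GFP library, and the 4 ID groups overlapped with one another. Against GFP, the fitted log2 change was 0.58 (standard error 0.09, adjusted p = 6.48e-05) for ID1, 0.62 (0.09, 1.50e-05) for ID2, 0.68 (0.09, 7.18e-06) for ID3 and 0.56 (0.09, 0.000118) for ID4. Without the third ID2 library, the ID2 value was 0.53 (adjusted p = 7.43e-05). No pair of ID labels passed the test for TCF12. The largest of these differences, ID3 over ID4, was 0.12 on the log2 scale (95% interval -0.05 to 0.29).

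TCF4 encodes the E protein ITF2, which acts in neural development and in dendritic cells and is not the Wnt effector TCF7L2 (chr18:52889416-53332018, minus strand). It was at 78.7, 79.7 and 78.1 CPM in GFP, a narrow range. It was at 91.8, 88.0 and 89.4 CPM with ID1, at 112, 107 and 117 with ID2, at 109, 106 and 100.2 with ID3, and at 98.3, 90.5 and 95.9 with ID4. No ID library reached down to the GFP libraries. On the log2 scale TCF4 rose by 0.53 with ID2 (standard error 0.06, adjusted p = 2.25e-07), 0.40 (0.06, 1.74e-05) with ID3, 0.27 (0.06, 0.00171) with ID4 and 0.17 (0.06, 0.0348) with ID1. Without the third ID2 library, the ID2 value was 0.48 (adjusted p = 3.75e-07). The ID1 call was the weakest. It was lost when any 1 of the 6 GFP and ID1 libraries was left out (log2 0.15 to 0.18, adjusted p up to 0.121) and without a filter on low values (adjusted p = 0.0936).

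For TCF4, the ID labels also differed from one another. The order of the means was GFP, ID1, ID4, ID3 and ID2 (78.8, 89.7, 94.9, 105 and 112 CPM). Neighbours among the 4 ID groups did not pass the test, with adjusted p-values of 0.441, 0.152 and 0.134. ID2 was above ID1 by 0.35 (log2, adjusted p = 0.000124) and above ID4 by 0.26 (adjusted p = 0.00240), and ID3 was above ID1 by 0.23 (adjusted p = 0.0144). Without the third ID2 library the differences of ID2 from ID1 and ID4 were 0.31 (adjusted p = 0.000427) and 0.22 (adjusted p = 0.0123). The ID1 to ID3 call was lost without the second ID1, the third ID1, the first ID3 or the second ID3 library (0.21 to 0.22, adjusted p 0.0558 to 0.0667).

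TCF3 encodes the E12 and E47 proteins, which are needed for early B cells and were among the first known partners of ID proteins (chr19:1609290-1652614, minus strand). It was at 249.7, 273 and 283 CPM in GFP. With ID1 the values were 211, 219 and 226 CPM, with ID2 234, 239 and 215, with ID3 190.0, 205 and 210.3, and with ID4 243, 243 and 252. The ID1, ID2 and ID3 libraries were all below the GFP libraries, while 1 ID4 library exceeded the lowest GFP library. TCF3 fell by 0.43 on the log2 scale with ID3 (standard error 0.06, adjusted p = 1.07e-05), by 0.31 with ID1 (0.06, 0.000497) and by 0.21 with ID2 (0.06, 0.00818). Without the third ID2 library the ID2 difference was -0.17 (adjusted p = 0.0281). For ID4 the difference was -0.13 (95% interval -0.25 to -0.01, adjusted p = 0.130), and it passed only without the first GFP library (-0.19, adjusted p = 0.0282).

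Among the ID labels, TCF3 was lower with ID3 than with ID4 by 0.30 (log2, adjusted p = 0.00224) and lower with ID3 than with ID2 by 0.22 (adjusted p = 0.0143). The ID2 to ID3 call was lost in a fit of those groups alone (adjusted p = 0.0674) and without the first ID2, the second ID2 or the first ID3 library (0.17 to 0.21, adjusted p 0.0511 to 0.0902), whereas without the third ID2 library it was 0.26 (adjusted p = 0.00328). In the order of the means (ID3, ID1, ID2, ID4 and GFP, from 202 to 269 CPM), no neighbours differed past the threshold.

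Since TCF4 and TCF12 moved one way and TCF3 the other, their counts were set against each other within each library, which needs no scaling between libraries. These ratios are of 3′ read counts and do not compare protein amounts. The TCF4 to TCF3 ratio was 0.315, 0.292 and 0.276 in GFP, and it ran from 0.395 to 0.436 with ID1, 0.448 to 0.545 with ID2, 0.477 to 0.576 with ID3 and 0.373 to 0.405 with ID4. The TCF12 to TCF3 ratio was 0.0583 to 0.0685 in GFP and 0.0950 to 0.154 over the 12 other libraries. In both ratios no ID library overlapped with GFP. For ID1, ID2 and ID3 this follows from the levels given above, so it is no separate result. The TCF12 to TCF4 ratio was 0.1996 to 0.228 in GFP and 0.209 to 0.244 with ID2, which overlapped, and 0.275 to 0.294 with ID1, 0.240 to 0.275 with ID3 and 0.249 to 0.271 with ID4, which did not.

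**Figure D2:**
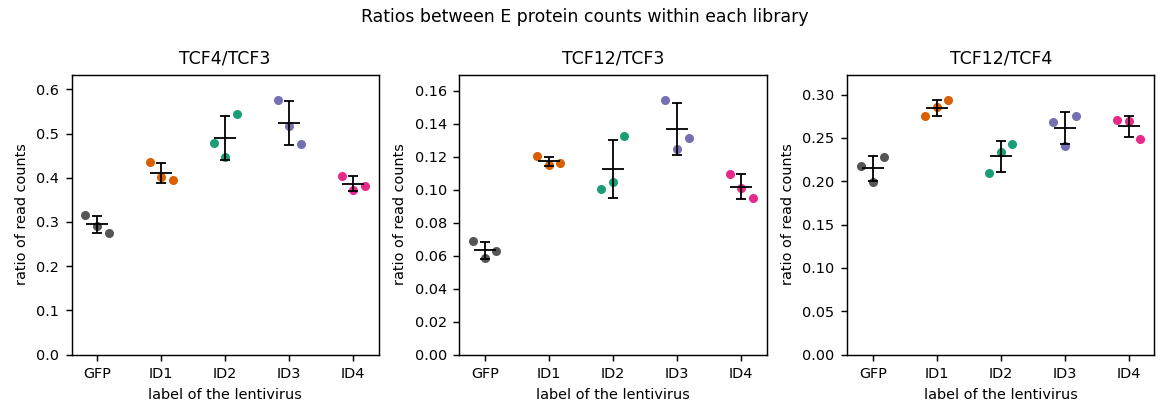
Ratios of read counts between E protein genes within each library (vertical axis, no unit, from 0) by label (horizontal axis). Points are libraries, and bars are the mean and SD of 3. The TCF4 to TCF3 and TCF12 to TCF3 ratios of all 12 ID libraries lie above those of the 3 GFP libraries, and TCF12 to TCF4 overlaps between GFP and ID2.

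HES1 is the best known Notch target of the family and keeps neural progenitors undifferentiated (chr3:193853937-193856521, plus strand). Its counts were low, 8 to 53 per library. The level was 1.55, 1.49 and 0.6695 CPM in GFP. It was 3.30, 1.87 and 3.95 CPM with ID1, 1.75, 1.59 and 2.01 with ID2, 2.63, 2.21 and 2.17 with ID3, and 2.91, 2.34 and 2.27 with ID4. Every ID library was above the GFP libraries, although the lowest ID2 library exceeded the highest GFP library by a small margin, and the third GFP library was low. HES1 rose 2.40-fold with ID1 (log2 1.26, standard error 0.31, adjusted p = 0.00327), 2.0-fold with ID4 (log2 1.00, 0.32, 0.0231) and 1.84-fold with ID3 (log2 0.88, 0.31, 0.0361). For ID2 the log2 difference was 0.53 (95% interval -0.11 to 1.16, adjusted p = 0.220), and without the third ID2 library 0.42 (adjusted p = 0.402).

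The third GFP library bears on all of these HES1 values. Without it, the difference was 0.60 for ID3 (adjusted p = 0.178) and 0.72 for ID4 (adjusted p = 0.121), both no longer called, while ID1 stayed called with any library left out (0.98 to 1.51 over all settings, adjusted p up to 0.0271). The ID4 call was also lost without the first ID4 library (0.87, adjusted p = 0.0990), and the ID3 call without any 1 of the ID3 libraries (0.79 to 0.92, adjusted p 0.0528 to 0.116). No pair of ID labels passed the test for HES1, ID1 over ID2 coming nearest (0.74, 95% interval 0.20 to 1.28, adjusted p = 0.0629). Over the alternative fits (edgeR, DESeq2, limma and single libraries left out) that adjusted p ran from 0.0141 to 0.281.

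HEY1, a Notch target known from the heart and blood vessels, was at 4.01, 3.56 and 4.02 CPM in GFP. With ID2 it was at 6.70, 6.99 and 6.09 CPM, above all other libraries. The remaining groups were at 4.22, 4.04 and 4.85 with ID1, 4.85, 4.55 and 4.79 with ID3, and 3.91, 4.24 and 3.86 with ID4. HEY1 rose 1.72-fold with ID2 (log2 0.78, standard error 0.15, adjusted p = 0.000223). Against GFP the other labels gave 0.16 (ID1, 95% interval -0.15 to 0.46), 0.27 (ID3, -0.03 to 0.57) and 0.04 (ID4, -0.27 to 0.36), with adjusted p-values of 0.533, 0.204 and 0.895. The differences between labels were tested as such. ID2 was above ID4 by 0.74 (adjusted p = 0.00102), above ID1 by 0.63 (adjusted p = 0.00330) and above ID3 by 0.52 (adjusted p = 0.0150). Without the third ID2 library, these were 0.79, 0.68 and 0.57, all still called, and the difference from GFP was 0.83 (adjusted p = 0.000418). The ID2 to ID3 call missed the threshold in DESeq2 (adjusted p = 0.0511), in a fit of those groups alone (0.0580) and without the second ID2 or second ID3 library (0.0612 and 0.0533).

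Counted over the whole table, the shares of genes called between ID labels were 18.6% for ID1 against ID2, 9.18% for ID1 against ID3, 4.87% for ID1 against ID4, 15% for ID2 against ID3, 18.6% for ID2 against ID4 and 11.3% for ID3 against ID4. Of the 8 tested bHLH genes, 2, 1, 0, 2, 2 and 1 were called in these comparisons, all of them TCF3, TCF4 or HEY1.

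**Figure D3:**
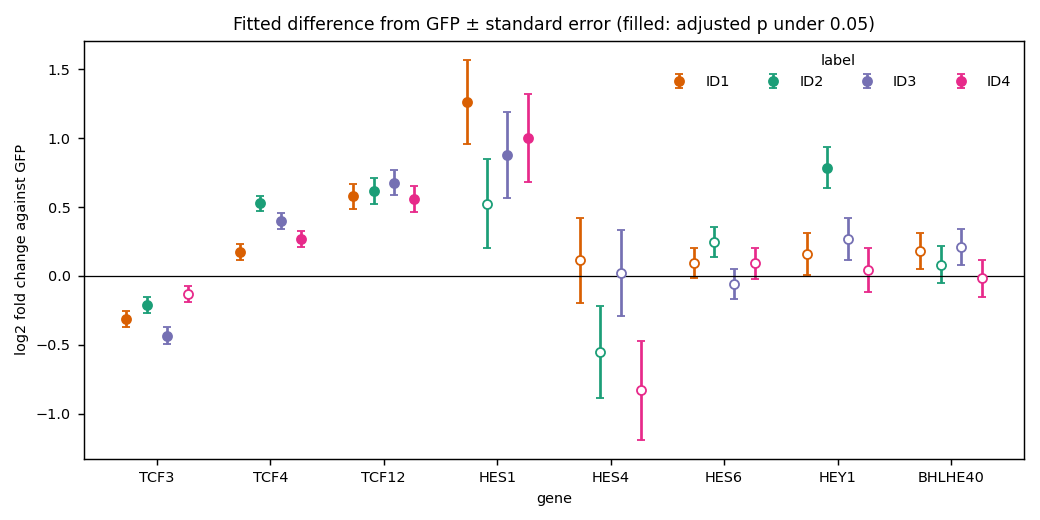
Fitted log2 fold change against GFP (vertical axis) of the 8 tested genes (horizontal axis) for the 4 ID labels, with its standard error. Filled points had an adjusted p under 0.05. TCF12 and TCF4 lie above 0 with all labels, TCF3 lies below 0, HES1 and HES4 have the widest errors, and HEY1 is filled only for ID2.

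HES4, a HES factor that mice lack, was at 2.11, 2.65 and 1.51 CPM in GFP (chr1:934342-935552, minus strand). It was at 2.38, 1.64 and 2.84 CPM with ID1, 1.02, 2.22 and 0.969 with ID2, 2.36, 1.57 and 2.54 with ID3, and 1.07, 0.902 and 1.51 with ID4. Each ID group overlapped with GFP. The lowest value was that of ID4 (log2 -0.83, 95% interval -1.53 to -0.13, adjusted p = 0.0999), followed by ID2 (-0.55, -1.21 to 0.10, adjusted p = 0.211). The second ID2 library was the high one, and without it the ID2 difference was -1.05 (adjusted p = 0.0292). With ID1 and ID3 the differences were 0.11 and 0.02, and their sign turned when single libraries were left out. For HES4, no pair of ID labels passed the test. The largest difference was 0.94 for ID1 minus ID4 (95% interval 0.26 to 1.63, adjusted p = 0.132). ID3 minus ID4 was 0.85 (0.16 to 1.54, adjusted p = 0.124) and ID1 minus ID2 was 0.67 (0.03 to 1.30, adjusted p = 0.162). The last interval left out 0, although the unadjusted p of the quasi-likelihood test was 0.0503. Over the alternative fits (edgeR, DESeq2, limma and single libraries left out), the adjusted p of ID1 minus ID2 ran from 0.0252 to 0.420.

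HES6 differs from its relatives in that it antagonizes HES1 and promotes neuronal differentiation (chr2:239146908-239149303, minus strand). It was at 16.6, 14.1 and 13.2 CPM in GFP and at 13.7 to 17.8 CPM in the 12 other libraries. The log2 differences were 0.09 with ID1, 0.25 with ID2, -0.06 with ID3 and 0.09 with ID4, with adjusted p-values of 0.612, 0.0810, 0.736 and 0.628. Without the first GFP library, which was the highest, the ID2 difference was 0.34 (adjusted p = 0.0339). The last 1000 bases of HES6 lie fully opposite a long noncoding RNA gene on the other strand, and whether the counting used strand is not given in the sources used here, so the HES6 counts are uncertain in that respect.

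BHLHE40, a repressor related to the HES family that responds to hypoxia and feeds back on the circadian clock, was at 26.1, 20.7 and 23.3 CPM in GFP (chr3:5021122-5027008, plus strand). It was at 18.7 to 29.9 CPM in the 12 other libraries, with a spread within ID2 (19.6 to 27.97) and ID4 (18.7 to 26.1) as wide as that between groups. The log2 differences were 0.18 (95% interval -0.08 to 0.44) with ID1, 0.08 (-0.17 to 0.34) with ID2, 0.21 (-0.05 to 0.46) with ID3 and -0.02 (-0.28 to 0.25) with ID4. Adjusted p-values were 0.251 to 0.952. With 3 libraries a group, changes within these interval bounds are not excluded.

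HEY2, which acts in the ventricle and in arteries (chr6:126068810-126082415, plus strand), had 1, 9 and 3 counts with GFP and 4 to 14 in the other libraries. Its level was 0.0704, 0.746 and 0.251 CPM in GFP and 0.624, 0.783 and 1.05 CPM with ID3, the highest group. The groups overlapped, and a two-sided exact permutation test of ID3 against GFP gave p = 0.20, where 3 libraries against 3 cannot go below 0.10. The other labels gave exact p-values of 0.50 (ID1), 0.70 (ID2) and 0.70 (ID4). In the fit without a filter the ID3 difference was 1.21 (95% interval 0.02 to 2.40, adjusted p = 0.148). HEYL (chr1:40089107-40105315, minus strand) had 0 counts in every library, which allows up to 0.198 to 0.271 CPM. Of the other relatives listed, HES2, HES3, HES5 and HELT had at most 3 counts in any library. HES7, with 6 to 18 counts, was tested and called with no label. Its mean was 0.595 CPM in GFP, 0.967 with ID1, 0.655 with ID2, 0.673 with ID3 and 1.12 with ID4.

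BHLHE41, the closest relative of BHLHE40 and likewise a repressor in the circadian clock, rose with every label. It was at 44.8 ± 1.43 CPM (SD, n = 3) in GFP, and its log2 fold change was 0.39 with ID1, 0.74 with ID2, 0.55 with ID3 and 0.52 with ID4 (adjusted p 1.69e-09 to 3.88e-05). Of the 15 clock genes listed, all tested, 1 rose and 0 fell with ID1, 1 and 3 with ID2, 0 and 0 with ID3, and 1 and 2 with ID4. Beside this and the lists below, 22.1%, 35.1%, 28.6% and 21.6% of all tested genes were called for ID1 to ID4. The shares higher were 12.4%, 18.5%, 15.1% and 12.1%, and those lower 9.73%, 16.7%, 13.5% and 9.51%. The median log2 difference over all tested genes lay between -0.0039 and 0.00098 in the 4 comparisons, and those of the clock genes between -0.02 and 0.04. ARNTL2, a partner of the clock activator CLOCK, rose with ID1 (0.54, adjusted p = 0.00403), ID2 (0.42, 0.0143) and ID4 (0.39, 0.0387). NFIL3, a repressor of clock output, fell by 0.50 with ID4 (adjusted p = 0.000195) and by 0.22 with ID2 (0.0429). The ARNTL2 call with ID2 was lost without the second GFP, the first ID2 or the second ID2 library (0.32 to 0.35, adjusted p 0.0694 to 0.0916), and that with ID4 without the first or the second GFP or the first or the second ID4 library (0.29 to 0.44, 0.0544 to 0.186). The NFIL3 call with ID2 was lost without the first or second GFP or the first or second ID2 library (-0.23 to -0.16, 0.0692 to 0.1995), in DESeq2 (0.0648), without a filter (0.0934) and in a fit of those groups alone (0.123). DBP, an activator of clock output, differed among the groups but with no label against GFP (-0.42 to 0.47).

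The tissue-restricted bHLH factors with which E proteins pair were mostly silent. Of the 39 listed, 27 had at most 3 counts in every library, among them the neural factors OLIG1, NEUROG2 and NEUROD1 and the myogenic factor MYOD1, and 8 were tested. Of these, 3 rose with ID1, 3 with ID2, 5 with ID3 and 1 with ID4, and 0 fell. The shares of all tested genes that rose were 12.4%, 18.5%, 15.1% and 12.1%. The medians of the 8 were 0.53, 0.50, 0.60 and 0.17 (log2) for ID1 to ID4. TWIST1, a factor of mesenchymal cells, was at 41.2 ± 2.12 CPM in GFP and rose with ID1 (0.45, adjusted p = 0.00135), ID2 (0.74, 2.20e-06) and ID3 (0.32, 0.0156), with 0.22 for ID4 (0.121). MSC, which encodes the repressor musculin, was at 4.10 ± 1.42 CPM and rose with ID2 (1.19, 3.98e-05), ID1 (1.06, 0.000305) and ID3 (0.58, 0.0331). The ID3 calls of both were lost with single libraries left out. For TWIST1 these were the second GFP and the third ID3 libraries (0.28 and 0.26, adjusted p 0.0669 and 0.0738), and for MSC the second or the third GFP and the first or the third ID3 library (0.39 to 0.57, 0.0703 to 0.186). ATOH8, an atonal relative, rose with ID3 (0.62, 2.39e-05) and ID2 (0.38, 0.00260) and had 0.15 and -0.04 with ID1 and ID4. Of 7 coregulators of E proteins, 5 were tested, and 1 call was made in the 4 comparisons, EP300 with ID4 (0.26, adjusted p = 0.0308). That call was lost in DESeq2 (0.0515) and without a filter (0.0669), and without any 1 GFP library, the first ID4 or the third ID4 library (0.20 to 0.28, adjusted p 0.0510 to 0.153).

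The Notch genes upstream of HES1 and HEY1 were examined in the order of the pathway. Among the 5 ligands only JAG1 was tested. It was at 4.73 ± 0.516 CPM in GFP and 9.86 ± 0.702 with ID2, and it rose with ID2 (log2 1.08, adjusted p = 1.68e-06), ID1 (0.55, 0.00662) and ID3 (0.55, 0.00512), with 0.16 for ID4 (0.510). Of the 3 receptors tested, 0 were called with ID1, ID3 or ID4. With ID2, NOTCH2, at 77.0 ± 7.05 CPM in GFP, fell by 0.18 (adjusted p = 0.0264), a call that was lost without the first GFP library (-0.12, 0.168), without the first or the third ID2 library (-0.16 and -0.17, 0.0787 and 0.0532), in a fit of those groups alone (0.103) and without a filter (0.0665). NOTCH4 had 7 entries in the table, of which 1 had counts, at most 24 per library, and its value with ID2 (1.14, 0.0499) missed the threshold in every other setting except without the first ID2 library.

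The 15 tested genes for maturation, glycosylation and cleavage of the receptor included LFNG. LFNG encodes lunatic fringe, the glycosyltransferase that alters which ligands a Notch receptor responds to. It was at 5.17 ± 0.465 CPM in GFP, 18.6 ± 1.06 with ID1, 27.3 ± 1.70 with ID2, 20.3 ± 0.867 with ID3 and 14.9 ± 1.52 with ID4, and its log2 fold changes were 1.84, 2.42, 1.96 and 1.52 (adjusted p 1.34e-13 to 2.96e-09). The gamma-secretase subunit gene APH1B rose with every label (0.41, 0.43, 0.59 and 0.62, adjusted p up to 0.000856), and its paralog APH1A fell by 0.32, 0.32, 0.47 and 0.17 (adjusted p up to 0.0385). The APH1A call with ID4 was lost without the second or the third GFP library or any 1 ID4 library (-0.18 to -0.12, adjusted p 0.0750 to 0.178). In the whole list, 4 rose and 1 fell with ID1, 6 and 1 with ID2, 4 and 2 with ID3, and 5 and 1 with ID4, with medians of -0.0017, 0.24, 0.07 and -0.04. The shares of all tested genes called were 22.1%, 35.1%, 28.6% and 21.6%.

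Of the 10 nuclear factors of the pathway, all tested, 3 rose and 2 fell with ID1, 2 and 2 with ID2, 2 and 2 with ID3, and 2 and 1 with ID4, with medians of 0.11, 0.13, 0.04 and 0.15. MAML3, one of the Mastermind coactivators, was at 2.89 ± 0.827 CPM in GFP and fell by 2.12 with ID1, 2.27 with ID2, 1.16 with ID3 and 1.00 with ID4 (adjusted p 4.31e-06 to 0.00882), the ID4 call being lost without the second GFP library (-0.81, 0.0594). SPEN, which encodes a corepressor that acts at RBPJ, rose with ID2 (0.86, adjusted p = 6.65e-09), with 0.10, 0.04 and 0.09 for ID1, ID3 and ID4. Of 6 tested regulators, the Notch inhibitor NUMB fell with every label (by 0.36, 0.32, 0.24 and 0.23, adjusted p up to 0.0315), NUMBL rose with ID2 (0.22, adjusted p = 0.00414) and ID3 (0.17, 0.0242), and DTX2 was called with no label (-0.18 to 0.22). The NUMB calls with ID3 and with ID4 were both lost without the first or the third GFP library, and each without either of a pair of libraries of its own label, the first and the second of ID3 and the first and the third of ID4 (-0.23 to -0.17, adjusted p 0.0614 to 0.129). The NUMBL call with ID3 was lost without the second GFP, first ID3 or second ID3 library (0.15 to 0.17, 0.0557 to 0.0959) and without a filter (0.0536). That list had 0 genes up and 1 down with ID1, 2 and 1 with ID2 and with ID3, and 1 and 1 with ID4, with medians of 0.03, 0.02, 0.17 and -0.03. Beside the nuclear factors and the regulators, 22.1%, 35.1%, 28.6% and 21.6% of all tested genes were called.

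Of the Groucho corepressors that HES and HEY proteins recruit, 4 of the 5 listed were tested. TLE3 rose with every label (0.37, 0.72, 0.63 and 0.43, adjusted p up to 0.00181) and TLE1 fell with every label (by 0.53, 0.49, 0.39 and 0.42, adjusted p up to 0.000867). TLE4 rose with ID1, ID3 and ID4 (0.44, 0.52 and 0.39, adjusted p up to 0.00103) and had -0.06 with ID2. Counted together, 2 rose and 2 fell with ID1, 1 and 1 with ID2, 2 and 1 with ID3, and 2 and 2 with ID4, with medians of 0.07, -0.02, 0.24 and 0.11. For this list and the next, the shares of all tested genes called were 22.1%, 35.1%, 28.6% and 21.6%. The 22 tested bHLH factors of other classes gave 4 up and 3 down, 6 and 5, 5 and 2, and 3 and 4 for ID1 to ID4, with medians of -0.05, -0.04, -0.02 and -0.04. Their smallest p-values were those of PAS-domain factors of the hypoxia and clock branches. EPAS1 fell by 0.92, 0.80, 0.79 and 0.81 (adjusted p up to 7.38e-09), NPAS2 fell by 1.06, 1.16, 1.31 and 0.62 (up to 4.29e-05), and ARNT2 rose by 1.24, 0.50, 1.02 and 0.78 (up to 0.00188).

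**Figure D4:**
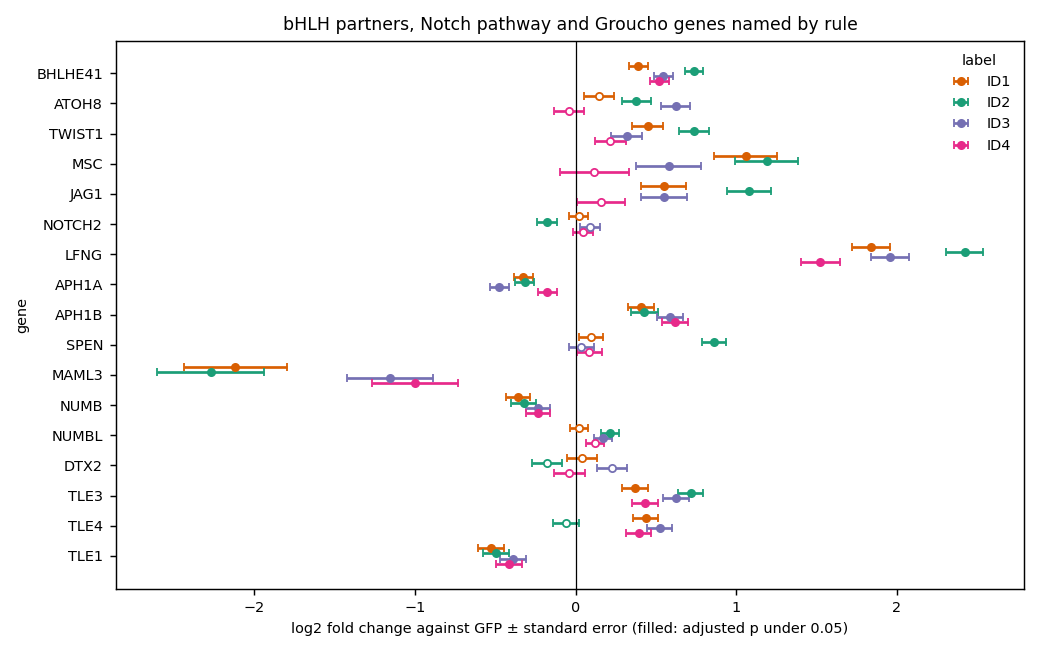
Fitted log2 fold change against GFP (horizontal axis) with its standard error for BHLHE41, bHLH partners of E proteins, Notch pathway genes and Groucho corepressors (vertical axis), for the 4 ID labels. Filled points had an adjusted p under 0.05. LFNG lies farthest above 0 (1.52 to 2.42) and MAML3 farthest below (-2.27 to -1.0), and SPEN is filled only for ID2. NOTCH4 is left out because of its low counts.

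Marker genes moved along with the labels, where 22.1%, 35.1%, 28.6% and 21.6% of all tested genes were called for ID1 to ID4. Of the 6 markers of U87MG and mesenchymal glioma, all tested, 3 rose and 1 fell with ID1, 4 and 1 with ID2, 3 and 1 with ID3, and 3 and 0 with ID4. Their summed level was 10576 to 11402 CPM in GFP and 14320 to 20821 CPM in the ID libraries, most of it fibronectin (FN1) and vimentin (VIM). Of 11 markers of other cell types, KRT5 was at 0 and CDH1, CDH5, CD3E, ALB and the neuronal marker RBFOX3 had at most 3 counts. EPCAM had 3 to 15 counts per library, PECAM1 1 to 8, CD14 up to 9 and PTPRC up to 8. The sum of the 11 was 7.62 to 11.3 CPM in GFP and 14.7 to 17.9 with ID1. It was 22 to 34.4 with ID2, 15.2 to 24.3 with ID3 and 10.8 to 15.1 with ID4, nearly all of it SNAP25, the only one tested. SNAP25, a synaptic gene, rose with ID2 (log2 1.73), ID3 (1.08) and ID1 (0.82), with adjusted p up to 0.00468. Their part in the results for TCF4, TCF12, HES1 and HEY1 was not tested.

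The genes whose levels followed an E protein most closely over the 15 libraries are given as a description, since these libraries share the 5 groups and the same control. For TCF4 they were FN1 (Pearson r of log2 CPM 0.971), the lysyl oxidase relative LOXL1 (0.970) and HHIPL2 (0.962). For TCF12 they were the phospholipase gene PLCB1 (0.958), RPS27L (0.955) and QPCT (0.951), and for TCF3 they were TOR3A (0.956), PLA2G16 (0.915) and OSBPL6 (0.909). Between the E proteins themselves, r was 0.778 for TCF4 and TCF12, -0.648 for TCF4 and TCF3 and -0.802 for TCF12 and TCF3.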

How the data were processed

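Libraries of U87MG RNA were made with the QuantSeq 3′ kit. The authors deposited raw read counts per gene symbol and log2 values normalized between libraries, and the submitters' processing notes name Bowtie2, BWA and hg19 (GRCh37), without saying how each was used. The gene annotation, use of strand in counting and normalization method are not given in the sources used here. Groups followed the sample titles. The members and gene lists were chosen with earlier results of these data known.

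CPM is the count scaled to the library total. Counts were fitted with edgeR 4.0.16 in R 4.3.3 (TMM, quasi-likelihood, 1 mean per group over 15 libraries, common dispersion 0.00463). The log2 values set the filter (mean of 3.22 or more, 12870 of 25737 entries). The test was checked on simulated data with known changes. Intervals are the estimate ± 1.96 standard errors. They do not come from the quasi-likelihood test, so an interval that just excludes 0 can go with an unadjusted p above 0.05. Exact permutation tests served genes under the filter.

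Alternatives were other filters, RLE factors, DESeq2 1.42.0, limma 3.58.1 on the deposited log2 values, only the compared groups, a replicate block and leaving out each library. Equal replicate numbers did not mark paired libraries (correlation of deviations -0.25 to 0.24 over 30 pairs).

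Genes beyond the members were named by rule. From each list these were the 3 tested genes with the smallest adjusted p for any difference, if under 0.05 (1 such gene is not reported here), and for the 3 members with the largest F the 3 entries most correlated with each. HES relatives, E protein partners and markers with few or no counts were named besides this, after their values were seen. Gene positions are those of GENCODE lifted to GRCh37, and promoters are those of RefSeq. Plots used matplotlib 3.10.9 (Python 3.11.15).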

Additional observations from a re-analysis of the deposited data

Results flagged for a closer look

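Differences between ID labels were singled out where the test of the difference itself passed, and they are given as values. TCF4 differed by -0.35 on the log2 scale for ID1 minus ID2, by -0.23 for ID1 minus ID3 and by 0.26 for ID2 minus ID4. TCF3 differed by 0.22 for ID2 minus ID3 and by -0.30 for ID3 minus ID4. HEY1 differed by -0.63 for ID1 minus ID2, by 0.52 for ID2 minus ID3 and by 0.74 for ID2 minus ID4. All but the TCF4 difference of ID1 from ID3 and the TCF3 difference of ID3 from ID4 involve the ID2 group, and each of those was also past the threshold without the third ID2 library. The TCF3 difference of ID2 from ID3 was no longer called without the first or second ID2 or the first ID3 library (adjusted p 0.0511, 0.0617 and 0.0902), nor was the HEY1 difference of ID2 from ID3 without the second ID2 or second ID3 library (0.0612 and 0.0533), nor the TCF4 difference of ID1 from ID3 without the second or the third ID1 or the first or second ID3 library (0.0558 to 0.0667). These are edgeR quasi-likelihood tests with Benjamini-Hochberg adjustment.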

How the results depend on the processing

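For the 8 tested members, the 32 log2 differences from GFP were refitted under 7 other settings besides leaving out libraries. Of these 224 values, 223 kept their direction and their side of the threshold, the exception being TCF4 with ID1 without a filter (0.17, no longer called). For the 8 called differences between labels, 53 of 56 values did so, and for the 101 called differences from GFP of the named list genes 687 of 707. The other 20 values, 7 of them for NOTCH4 with ID2, lay in 10 of these calls. Label differences not called in the main fit were not counted here. Those of HES1 and HES4 (ID1 against ID2) and TCF3 (ID1 against ID4) passed the threshold in some alternative fits. With single libraries left out, 547 of 606 values stayed called in the same direction, and 18 of the 101 calls were lost at least once. The replicate block, tried although equal numbers did not pair the libraries, left the number of members called at 4, 4, 4 and 3 for ID1 to ID4 against GFP, and the number of genes called at 2713, 4362, 3517 and 2585, moved no count of calls by over 1.5 times, and lost the calls of NOTCH4 with ID2, APH1A with ID4 and ARNTL2 with ID4 (adjusted p 0.0685, 0.0558 and 0.0531). With single libraries left out, the comparisons with GFP called 3 members (ID1), 4 to 5 (ID2), 3 to 4 (ID3) and 2 to 4 (ID4), and 2220 to 2400, 3928 to 4425, 2909 to 3285 and 2133 to 2349 genes in the same order. Between labels the genes called were 634 to 1165 (ID1 against ID3), 363 to 423 (ID1 against ID4) and 800 to 1377 (ID3 against ID4). Differences near 0 changed sign with single libraries left out, with ranges of -0.0643 to 0.311 for HES4 with ID1, -0.155 to 0.218 for HES4 with ID3, -0.124 to 0.0337 for HES6 with ID3, -0.0177 to 0.216 for BHLHE40 with ID2, -0.0984 to 0.122 for BHLHE40 with ID4 and -0.0064 to 0.0700 for HEY1 with ID4. Between labels, a fit of the compared groups alone called 1064 genes instead of 627 for ID1 against ID4 and 1073 instead of 1935 for ID2 against ID3. The cause was not tested. Without a filter, 1 member instead of 2 was left untested, since only a gene with 0 counts throughout then drops out. Low counts limit HES1, HES4 and HEY2, at most 53 per library.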
